A study of Homo sapiens with 3 samples.

Results

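The effect of an siRNA against HDAC1 was read in CaSki cells that carry NANOG, by setting 1 library of NANOG cells given the HDAC1 siRNA beside 1 library of NANOG cells given an siRNA against GFP. Genes were taken when their mean over these 2 libraries was at least 1 FPKM (the fragment number of a gene, scaled by transcript length and library size). Small RNA symbols were left out, and so were genes at exactly 0 in one library and at 5 FPKM or more in the other. That left 11385 of the 23277 gene symbols of the series, and 2 of its 3 libraries. CaSki is an established line of epidermoid cervical carcinoma cells that carries human papillomavirus. All libraries hold total RNA of this 1 line; NANOG cells carry the retroviral construct pMSCV/FLAG-NANOG, and the third library comes from cells with the empty pMSCV vector and the GFP siRNA. GFP is not a human gene, so its siRNA serves as the control. The labels do not say how many cultures or cell clones stand behind a library, and HDAC1 siRNA in cells with the empty vector was not analysed here.

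HDAC1 is a class I histone deacetylase that works inside the SIN3, NuRD, CoREST and related corepressor complexes. It removes acetyl groups from histone tails, a change associated with reduced transcription, and its close relative HDAC2 sits in the same complexes. NANOG is a homeobox transcription factor that maintains pluripotency in embryonic stem cells and is produced aberrantly in some carcinomas. The title of the series names a set of target genes controlled through both proteins as the question.

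Each group held 1 library, so every difference below lacks a replicate check, and neither an error nor a p-value can be attached to it. A difference is always log2(FPKM + 1) with HDAC1 siRNA minus log2(FPKM + 1) with GFP siRNA in NANOG cells, so that a positive value means a higher level with HDAC1 siRNA. The pseudocount of 1 FPKM shrinks the differences of genes at low levels. In these bulk samples, fewer cells of a type and less RNA per cell cannot be told apart. The level in the empty vector library is given beside most genes whose levels are printed. Genes given by their difference alone lack it here. The NANOG GFP siRNA library enters both comparisons that the 3 libraries allow, so a value peculiar to it moves both, and no count of shared directions is given. That library held the outlying level for many of the genes described below, and whether such levels recur in another culture of NANOG cells with GFP siRNA was not tested.

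HDAC1 itself was at 19.02 FPKM with the empty vector. In NANOG cells it was at 108 FPKM with GFP siRNA and 12.8 with HDAC1 siRNA. The level with HDAC1 siRNA was 8.45-fold below that with GFP siRNA, a difference of -2.98 and the lowest of all genes taken. The NANOG GFP siRNA library stood far above the other two, and the empty vector library lay close to the HDAC1 siRNA library. NANOG was at 0.036 FPKM in the empty vector library, 298 with GFP siRNA and 325 with HDAC1 siRNA, a difference of 0.12 between the NANOG libraries. The directions of both genes therefore matched the labels. The size of the HDAC1 difference depends on the high level in the NANOG GFP siRNA library, since 12.8 FPKM lies much nearer to the 19.02 of the empty vector library.

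Epithelial identity was checked with 10 markers of keratinocytes and cervical carcinoma, and 9 reached 1 FPKM in both NANOG libraries. TP63 was the exception, at 0.785 FPKM with GFP siRNA and 1.004 with HDAC1 siRNA. The markers summed to 5767, 5991 and 5125 FPKM in the empty vector, GFP siRNA and HDAC1 siRNA libraries. Of 5 fibroblast markers only COL1A1 passed 1 FPKM, at 3.76 and 2.67 in the NANOG libraries, and the other 4 stayed under 0.1 FPKM. The leukocyte marker PTPRC was at 0 in both NANOG libraries, while CD68, which epithelial lines can also express, was at 61.2 and 53.5. None of 3 endothelial markers reached 1 FPKM.

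The deposited values summed to between 600749 and 681947 FPKM per library. Low values of genes with a single transcript fell on steps of nearly the same size in all 3 libraries, which puts depth at about 26800000 to 27700000 fragments. The share of the summed FPKM that small RNA symbols held was 21.2% with the empty vector, and in NANOG cells 23.1% with GFP siRNA and 15.99% with HDAC1 siRNA. Rescaling to TPM (every library summing to the same total) over all symbols therefore moved the median difference of all genes from 0.01 to 0.18, and TPM without small RNAs moved it to 0.07. Differences below are read against the median of all genes.

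Most genes differed little. The quartiles of the difference were -0.11 and 0.13, and the percentiles 1 and 99 lay at -0.65 and 0.51. At least 2-fold (a difference of 1 in size) separated the libraries for 4 genes that were higher with HDAC1 siRNA (0.0351% of those taken) and 25 that were lower (0.220%). On the TPM scale over all symbols the same threshold gave 15 higher and 17 lower, so the excess of lower genes depends on the scale. At least 1.5-fold separated them for 71 higher genes (0.624%) and 166 lower ones (1.46%). By any amount, 53.2% were higher and 46.8% lower. Just inside and outside the 2-fold line lay C17orf61-PLSCR3 (1.05) and IL8 (0.98) on the high side and BAP1 (-1.02) and DCAF6 (-0.99) on the low side. At the level threshold, ALDH3A1 just passed and SLC24A1 just missed, at mean levels of 1.00003 and 0.999853 FPKM.

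**Figure D1:**
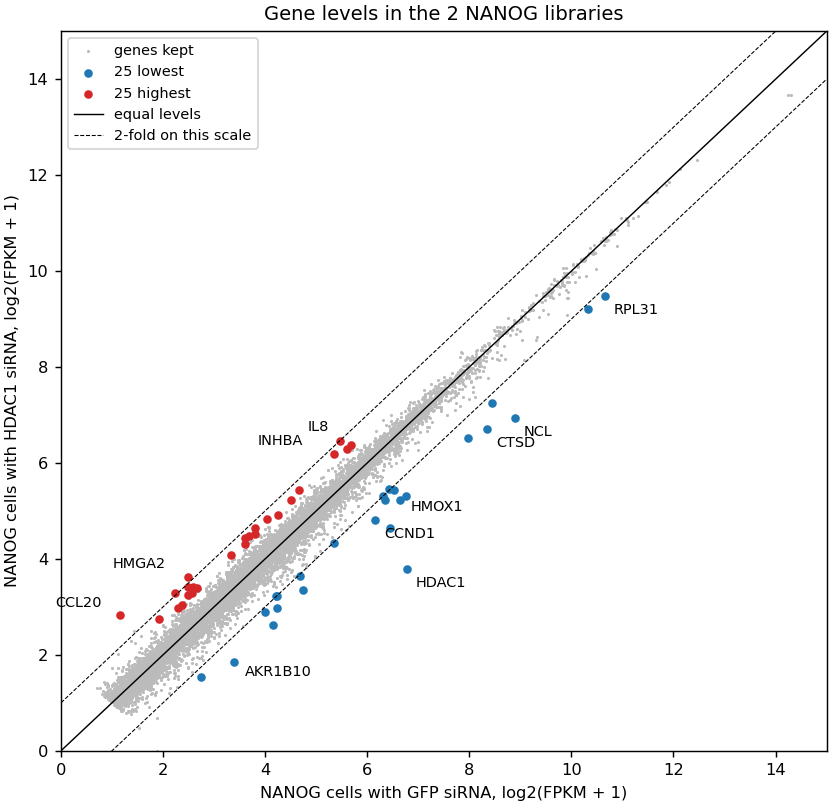
Each gray point is 1 of the 11385 genes, with its log2(FPKM + 1) level in NANOG cells with GFP siRNA on the horizontal axis and with HDAC1 siRNA on the vertical axis; the solid line marks equal levels and the dashed lines 2-fold. Blue and red points are the 25 genes with the lowest and the 25 with the highest difference among those at 5 FPKM or more in the higher library, and HDAC1 lies farthest below the line.

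A further 6 genes were left out because they were listed at 0 in one of the NANOG libraries, which was the GFP siRNA library in each case. HNRNPC, an abundant RNA-binding protein of the spliceosome pathway, was at 139 FPKM in the empty vector library, 0 with GFP siRNA and 134 with HDAC1 siRNA. RPL21, a ribosomal protein gene, was at 781, 0 and 663 in these libraries, and its pseudogene RPL21P28 at 18.8, 0 and 84.4. PAK4 was at 26.5, 0 and 25.7, OBFC2A at 18.2, 0 and 20.0, and P2RX6P at 0, 0 and 5.74. HNRNPC and RPL21 are used by every cell, so these zeros are given as listed and no fold is drawn from them.

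The genes lowest with HDAC1 siRNA, after HDAC1, were led by NCL, C11orf51, CTSD, NCS1 and AKR1B10. NCL encodes nucleolin, a major nucleolar protein of ribosomal RNA synthesis and packing. It was at 135 FPKM in the empty vector library, 474 with GFP siRNA and 122 with HDAC1 siRNA, a difference of -1.95. The NANOG GFP siRNA library stood alone at the top, and the other two were close to each other. C11orf51 (now ANAPC15), a subunit of the anaphase-promoting complex, was at 28.2, 86.0 and 23.99 FPKM in that order of libraries, a difference of -1.80. CTSD, the lysosomal aspartic protease cathepsin D, was at 111, 327 and 103 FPKM, a difference of -1.66. Again the GFP siRNA library was the high one, about 3-fold above both others.

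The calcium sensor gene NCS1 was at 5.81 FPKM in the empty vector library, 16.8 with GFP siRNA and 5.11 with HDAC1 siRNA (-1.54). PPM1G, a nuclear protein phosphatase, was at 43.0, 107 and 38.8 FPKM (-1.44). CCND1, cyclin D1, which activates CDK4 and CDK6 in G1, was at 30.5, 70.4 and 27.0 FPKM (-1.35). In all 3 of these genes the HDAC1 siRNA library lay slightly under the empty vector library and the GFP siRNA library far above both. The ribosome biogenesis gene WDR18 was at 9.74, 25.8 and 9.25 FPKM (-1.38). ASPH, an aspartyl beta-hydroxylase of the endoplasmic reticulum, was at 81.7, 250.2 and 90.3 FPKM (-1.46). ASPH ended a little above its level in the empty vector library, unlike WDR18.

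SHFM1, which encodes a small acidic subunit of the proteasome lid, was at 153 FPKM in the empty vector library, 349 with GFP siRNA and 151 with HDAC1 siRNA (-1.20). CBX5, the heterochromatin protein HP1 alpha, was at 6.55, 15.01 and 6.38 FPKM (-1.12). BAP1, a nuclear deubiquitinase and tumor suppressor, was at 9.59, 17.8 and 8.29 FPKM (-1.02). The GFP siRNA library was again the high one in these 3 genes. RPL31, a protein of the large ribosomal subunit, was at 720.5, 1613 and 711 FPKM (-1.18); it has many near-identical pseudogene copies, so the share of fragments assigned to it is uncertain. PTMS, parathymosin, differed from the pattern above. It was at 64.9 FPKM in the empty vector library, 80.3 with GFP siRNA and 36.5 with HDAC1 siRNA (-1.12), so that the HDAC1 siRNA library was the one that stood apart. BSCL2, seipin of lipid droplet formation, was at 6.86, 24.5 and 11.5 FPKM (-1.03), between the other libraries with HDAC1 siRNA. The remaining genes of the lowest 25 were TCTA, NECAB2, PTMA, ANP32A, KIF1C, DCAF6, TSR2 and RAB34 beside the redox genes AKR1B10 and HMOX1, and their differences ran from -1.53 to -0.99.

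**Figure D2:**
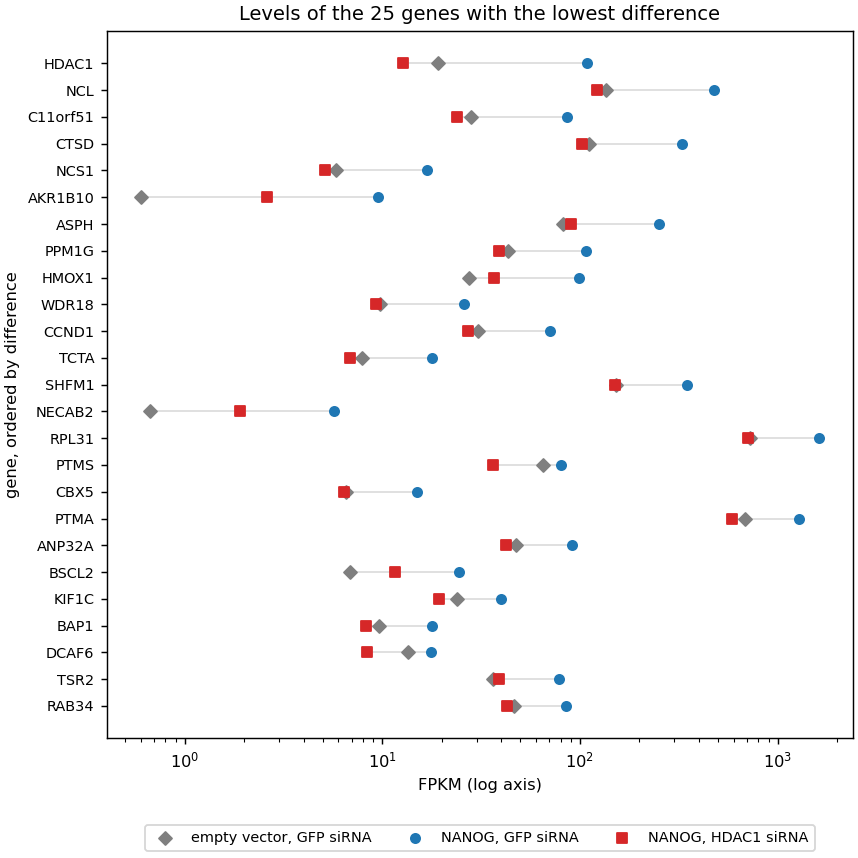
Levels in FPKM on a log axis for the 25 genes with the lowest difference, 1 row per gene, in the empty vector library (gray diamonds), NANOG cells with GFP siRNA (blue circles) and NANOG cells with HDAC1 siRNA (red squares), 1 library each. The gray diamond lies near the red square in most rows, as for NCL (135 and 122 FPKM against 474), and well away from it for PTMS (64.9 against 36.5).

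Several of the lowest genes share a feature of their coding sequence, namely runs of codons starting with GA, which encode aspartate and glutamate. The feature was chosen with earlier results of these data known, and the lowest genes that have it are counted in the shares given below. Those shares therefore describe the genes and are not a separate check. The densest window of 30 codons in the longest annotated coding sequence was taken for each gene. The windows below show the feature at its most extreme, with NCL, C11orf51, PTMA and CALR as dense cases and CTSD as a low gene that lacks it. Each is printed 5′ to 3′ on the coding strand, with codons that start with GA in capitals.
NCL: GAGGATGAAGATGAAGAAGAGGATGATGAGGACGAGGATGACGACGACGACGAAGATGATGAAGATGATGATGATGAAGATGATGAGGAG
C11orf51: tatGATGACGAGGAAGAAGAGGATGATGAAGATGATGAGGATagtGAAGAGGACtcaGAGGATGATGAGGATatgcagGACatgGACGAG
PTMA: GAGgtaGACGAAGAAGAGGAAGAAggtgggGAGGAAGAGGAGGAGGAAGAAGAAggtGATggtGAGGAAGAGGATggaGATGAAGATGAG
CALR: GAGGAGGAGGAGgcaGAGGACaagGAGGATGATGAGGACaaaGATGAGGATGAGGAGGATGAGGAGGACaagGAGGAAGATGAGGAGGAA
CTSD: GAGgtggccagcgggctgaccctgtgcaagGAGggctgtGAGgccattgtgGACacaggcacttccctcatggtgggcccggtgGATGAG
In GRCh38 with GENCODE release 29, the NCL window is in exon 4 at chr2:231460691-231460780 on the minus strand, and that of C11orf51 in exon 4 at chr11:72110133-72110222 on the minus strand. The PTMA window runs from exon 3 into exon 4, chr2:231711923-231712471 on the plus strand with an intron between. The CALR window is in exon 9 at chr19:12943791-12943880 on the plus strand, and the CTSD window in exon 7 at chr11:1754045-1754134 on the minus strand. The deposited values were made on hg19, so these positions are not those of the authors' alignment.

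Up to 14 such codons, where most genes lie, the median difference was flat, between 0.01 and 0.03 in each of 4 groups of genes, and it was lower in the denser groups. NCL has 30 of 30 codons starting with GA, ANP32A 25, C11orf51 and PTMA 24 and PPM1G 22, whereas CTSD has 6 and HDAC1 has 14. Of 10779 genes taken that had a coding sequence, 263 (2.44%) had at least 18 such codons, as did 5 of 24 genes (20.8%) among the lowest 25 and 0 of 24 among the highest 25. With 5 codons or fewer, the median difference of 875 genes was 0.03 and 0.8% were at least 1.5-fold lower. With 15 to 17 codons, the median of 334 genes was -0.05 and 2.10% were 1.5-fold lower. With 18 to 20 codons, the median of 155 genes was -0.07 and 5.81% were 1.5-fold lower. With 24 to 30 codons, the median of 46 genes was -0.13 and 26.1% (12 genes) were 1.5-fold lower, and none was 1.5-fold higher. Genes are not replicates, and the same 2 libraries stand behind every one of these values.

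The 46 densest genes did not share one direction: 32 were lower and 14 higher. Among the dense genes that were lower, CALR, a calcium-binding chaperone of the endoplasmic reticulum, was at 316 FPKM in the empty vector library, 537 with GFP siRNA and 282 with HDAC1 siRNA (-0.93). PTMA, prothymosin alpha, a small acidic nuclear protein that binds histones, was at 685, 1278 and 591 FPKM (-1.11). ANP32A, an acidic nuclear histone chaperone, was at 47.4, 91.4 and 42.0 FPKM (-1.10). All 3 had their high value in the NANOG GFP siRNA library. A dense window did not come with one size of difference. HMGB1, with 30 of 30 such codons, as many as NCL, was at 105, 153 and 115 FPKM (-0.41). ATAD2, with 29 such codons, was at 53.3, 42.8 and 50.5 FPKM, higher by 0.23. Of the 46 genes, 7 were at 100 FPKM or more with GFP siRNA, and 5 of these were at least 1.5-fold lower, beside 1.46% of all genes at any level. The level was cut on the library that is subtracted in the difference, which favors genes that were high there. The share over all genes at that level was not computed, so the count is read no further. PTMA, NPM1, SET and HMGB1 have processed pseudogenes, and how fragments were shared with them was not tested.

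**Figure D3:**
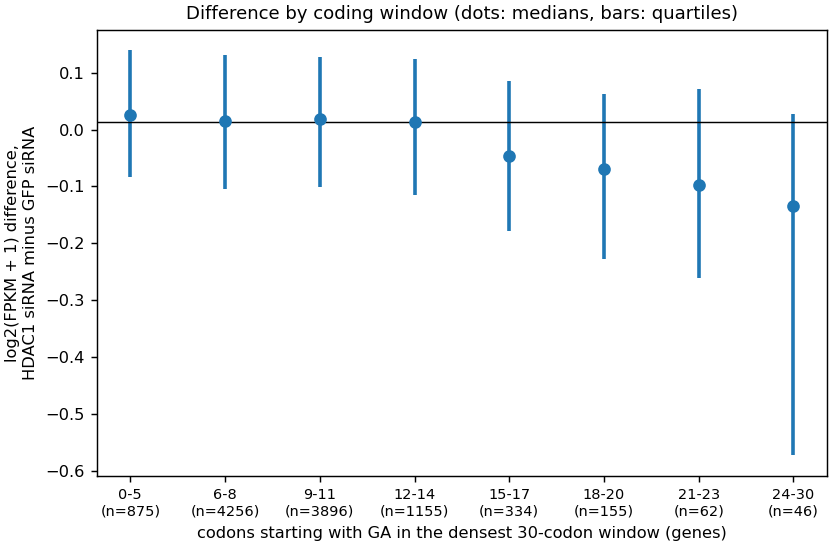
Median log2(FPKM + 1) difference (dots) and quartiles (bars) of genes grouped by the number of codons starting with GA in their densest 30-codon window, with the number of genes under each group; the thin horizontal line is the median of all genes, 0.01. The median goes from 0.03 at 0 to 5 codons to -0.13 at 24 to 30 codons, where the lower quartile reaches -0.57.

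NRF2 is the transcription factor that turns on antioxidant and NADPH-producing enzymes, and KEAP1 holds it in check. Of 34 genes of this group, 32 were taken, and 29 were lower with HDAC1 siRNA and 3 higher, with a median of -0.29. At least 1.5-fold lower were 6 of the 32, beside 1.46% of all genes. The median stayed negative on the TPM scale over all symbols, at -0.11, where that of all genes was 0.18.

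HMOX1, heme oxygenase, was at 27.4 FPKM in the empty vector library, 99.1 with GFP siRNA and 36.6 with HDAC1 siRNA (-1.41). NQO1, a quinone reductase, was at 205, 639 and 394 FPKM (-0.70). AKR1B10, an aldo-keto reductase, was at 0.602, 9.48 and 2.62 FPKM (-1.53). In each of these the HDAC1 siRNA library lay between the other two, nearer the empty vector library for HMOX1 and about midway for NQO1. AKR1C1 was at 5.10, 32.1 and 18.7 FPKM (-0.75) and AKR1C3 at 34.8, 127 and 85.6 (-0.57), and because the AKR1C genes are near-identical the split between them is uncertain. GCLC, the catalytic subunit of glutathione synthesis, was at 17.8, 33.2 and 21.9 FPKM (-0.58). These levels too were intermediate with HDAC1 siRNA.

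The ferritin chains were the most abundant members. FTL was at 8470 FPKM in the empty vector library, 20074 with GFP siRNA and 13086 with HDAC1 siRNA (-0.62). FTH1 was at 14686, 19404 and 12995 FPKM (-0.58), so its HDAC1 siRNA level was under both others; both have many pseudogenes. The 3 higher members were the export pump ABCC2 (0.52, from 1.53 to 2.63 FPKM), NFE2L2, which encodes NRF2 itself (0.15), and KEAP1 (0.07). The glutamate-cysteine ligase modifier GCLM (-0.19) and thioredoxin reductase TXNRD1 (-0.12) were only slightly lower.

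Keratins form the intermediate filaments of epithelial cells, and 16 of 23 were taken. Of these, 12 were lower and 4 higher, with a median of -0.26 (-0.08 on the TPM scale over all symbols, and -0.05 over all 23 with no filter on low values). KRT5, the basal type II keratin, was at 555 FPKM in the empty vector library, 959 with GFP siRNA and 540 with HDAC1 siRNA (-0.83). KRT6A, a keratin of activated epidermis, was at 23.6, 39.8 and 24.5 FPKM (-0.68). Both returned values in the HDAC1 siRNA library close to those of the empty vector library. KRT8, a keratin of simple epithelia, was at 959.5, 1434 and 1049.9 FPKM (-0.45), while its partner KRT18 differed by -0.05. KRT19 had a different order, 1562, 1132 and 945 FPKM (-0.26), lowest with HDAC1 siRNA. KRT14, the partner of KRT5, differed by 0.06, KRT17 by 0.21 and KRT34 by 0.83, the last from 33.0 FPKM in the empty vector library to 1.95 with GFP siRNA and 4.22 with HDAC1 siRNA. KRT83, which is not one of the 23 listed keratins, was among the 25 genes at least 2-fold lower, at 2.54, 1.88 and 0.396 FPKM (-1.05), but it, KRT81 and KRT86 are close copies whose fragments are hard to separate.

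Lysosomal genes had a median of -0.14, with 32 of 40 lower and 8 higher. On the TPM scale over all symbols the sign of that median turned, to 0.037, but it was still below the 0.18 of all genes. CTSD was the member farthest from the rest. TFE3, a transcription factor that drives lysosomal genes, was at 39.7 FPKM in the empty vector library, 58.9 with GFP siRNA and 37.9 with HDAC1 siRNA (-0.62). Its relative TFEB was at 1.52, 0.872 and 1.68 FPKM (0.52), the opposite order at much lower levels. The proteases CTSF (-0.50) and CTSB (-0.35) were lower and the cholesterol exporter NPC1 was higher (0.22).

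The gene highest with HDAC1 siRNA was CCL20, and IL8, CSF2 and IL23A were other secreted immune signals among the highest 25. CCL20, the ligand of the receptor CCR6 on dendritic and lymphoid cells, was at 1.66 FPKM in the empty vector library, 1.24 with GFP siRNA and 6.15 with HDAC1 siRNA, a difference of 1.68. With its transcript of 839 bases this is about 29 fragments in the GFP siRNA library and 143 in the HDAC1 siRNA library. IL8 (CXCL8), a neutrophil chemoattractant, was at 37.2, 43.3 and 86.3 FPKM (0.98). For both genes the HDAC1 siRNA library stood alone at the top and the other two were close to each other. CSF2, the cytokine GM-CSF, was at 3.13, 2.80 and 5.72 FPKM (0.82), about 61 fragments against 125 in the NANOG libraries. IL23A, a subunit of interleukin-23, was at 3.90, 3.91 and 6.87 FPKM (0.68), about 113 fragments against 199. In both genes the HDAC1 siRNA library was the high one and the other two were close, on few fragments.

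Of 48 chemokines and cytokines in the list, 27 were taken, 21 higher and 6 lower with a median of 0.41, and 7 of the 27 were at least 1.5-fold higher beside 0.624% of all genes. The value rests on genes at low levels: at a mean of 5 FPKM or more, 17 members remained with a median of 0.14. Over all 48 with no filter on low values, the median was 0.09. CXCL2 was at 7.87 FPKM in the empty vector library, 11.7 with GFP siRNA and 19.1 with HDAC1 siRNA (0.66), and CXCL1 at 8.82, 15.8 and 24.4 (0.60). Both are neutrophil chemoattractants of the family of IL8, and for both the empty vector library was lowest and the HDAC1 siRNA library highest. IL32 was at 83.5, 51.2 and 75.7 FPKM (0.55), with the GFP siRNA library the low one. The members CCL5 and IL6, above 100 FPKM in both NANOG libraries, differed less than IL8, with CCL5 at 182, 224 and 243 FPKM (0.12) and IL6 at 98.7, 101 and 109.9 (0.12). The interferon-inducible chemokine CXCL10 was lower, at 9.21, 17.5 and 13.1 FPKM (-0.39), and so was TNFSF9 (-0.35).

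The second highest of these genes was HMGA2. HMGA2, an architectural chromatin protein of embryonic and tumor cells, was at 4.01 FPKM in the empty vector library, 4.63 with GFP siRNA and 11.3 with HDAC1 siRNA (1.13). As with CCL20, the HDAC1 siRNA library stood apart from both others. Of the 11 high mobility group genes taken, HMGA2 was the one past 1.5-fold, beside 0.624% of all genes higher and 1.46% lower. Its relative HMGA1 was at 0.05. MMP3, the matrix protease stromelysin, was at 4.23, 9.10 and 15.9 FPKM (0.75). INHBA, the activin A subunit, was at 78.9, 39.5 and 71.8 FPKM (0.85). IL1R2, a decoy receptor for interleukin-1, was at 11.9, 4.58 and 9.73 FPKM (0.94). For INHBA and IL1R2 the GFP siRNA library was the low one, unlike HMGA2 and MMP3.

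IL6R, the interleukin-6 receptor, was at 3.65 FPKM in the empty vector library, 1.71 with GFP siRNA and 4.61 with HDAC1 siRNA (1.05), and was one of the 4 genes at least 2-fold higher. C17orf61-PLSCR3, another of the 4, is a readthrough transcript that overlaps PLSCR3, so its 5.97, 3.71 and 8.73 FPKM (1.05) are uncertain; PLSCR3 itself differed by 0.12. MAFF, a small MAF transcription factor, was at 26.1, 15.3 and 27.4 FPKM (0.80). SPHK1, which makes sphingosine 1-phosphate, was at 32.9, 24.3 and 42.6 FPKM (0.79). ANKRD1, a target of the YAP pathway, was at 9.10, 5.02 and 9.63 FPKM (0.82). MAFF and ANKRD1 were at nearly the same level in the empty vector and HDAC1 siRNA libraries, and SPHK1 was highest with HDAC1 siRNA. Further members of the highest 25 were SLC12A7, SLC16A13, RHEBL1, ZNF267, HIPK3, SCHIP1, PNRC2, LHFP and ZNF367, with differences from 0.68 to 0.85.

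**Figure D4:**
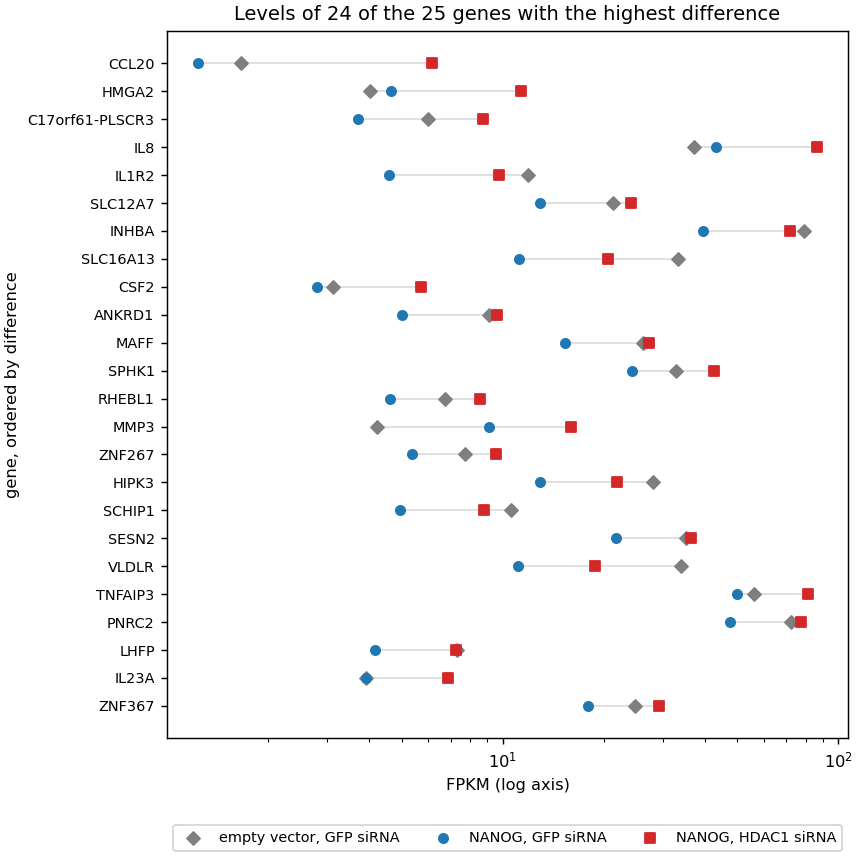
Levels in FPKM on a log axis for 24 of the 25 genes with the highest difference, 1 row per gene, in the empty vector library (gray diamonds), NANOG cells with GFP siRNA (blue circles) and NANOG cells with HDAC1 siRNA (red squares), 1 library each. For CCL20, HMGA2 and IL8 the red square stands apart from both others, and for IL1R2 and VLDLR the blue circle is the low point while the gray diamond is the high one.

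NF-kB is a family of dimeric transcription factors that switch on cytokine genes and their own inhibitors. Of its 25 listed subunits and feedback genes all were taken, 22 were higher and 3 lower, with a median of 0.22, and 2 were at least 1.5-fold higher beside 0.624% of all genes. TNFAIP3 (A20), a feedback inhibitor, was at 56.2 FPKM in the empty vector library, 50.01 with GFP siRNA and 81.6 with HDAC1 siRNA (0.70). TRAF1 was at 11.9, 12.1 and 19.3 FPKM (0.64) and RELB, an NF-kB subunit, at 30.1, 30.03 and 41.1 (0.44). These 3 genes were at like levels in both GFP siRNA libraries and highest with HDAC1 siRNA. NFKBIA, the classical inhibitor, differed by only 0.05. Among AP-1 transcription factors, 10 of 12 were higher with a median of 0.18, led by MAFF and by FOSL1 at 117, 137 and 182 FPKM (0.40).

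Promoters of these genes are shown because several members were higher together. The 250 bases before the RefSeq start site (GRCh38.p14) were searched on both strands for the NF-kB consensus and for the AP-1 motif TGANTCA; the matches are in capitals, and they mark letters, not bound sites. In CXCL8 the capitals are an AP-1 match, and in the other 3 they are NF-kB matches, which overlap each other in CXCL2.
CCL20: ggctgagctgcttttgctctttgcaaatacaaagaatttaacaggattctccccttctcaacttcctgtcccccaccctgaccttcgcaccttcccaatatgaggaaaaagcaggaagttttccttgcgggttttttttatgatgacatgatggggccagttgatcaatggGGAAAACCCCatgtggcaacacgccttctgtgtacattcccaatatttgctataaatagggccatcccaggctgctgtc
CXCL8: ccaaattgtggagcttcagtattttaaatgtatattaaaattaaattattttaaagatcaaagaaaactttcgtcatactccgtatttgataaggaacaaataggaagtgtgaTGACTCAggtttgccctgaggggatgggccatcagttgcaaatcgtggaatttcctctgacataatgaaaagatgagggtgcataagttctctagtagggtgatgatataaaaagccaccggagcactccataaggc
CXCL2: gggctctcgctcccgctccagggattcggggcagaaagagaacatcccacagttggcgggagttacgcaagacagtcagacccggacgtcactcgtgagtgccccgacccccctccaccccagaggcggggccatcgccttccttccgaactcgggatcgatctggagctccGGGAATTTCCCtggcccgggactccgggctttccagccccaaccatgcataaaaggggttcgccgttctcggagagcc
TNFAIP3: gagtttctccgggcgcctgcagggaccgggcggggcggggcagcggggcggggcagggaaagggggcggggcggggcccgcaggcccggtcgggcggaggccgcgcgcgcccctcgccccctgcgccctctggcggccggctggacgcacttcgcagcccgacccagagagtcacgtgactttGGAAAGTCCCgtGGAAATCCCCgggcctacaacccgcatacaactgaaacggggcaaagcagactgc
They lie at chr2:227813592-227813841 (CCL20, plus strand), chr4:73740319-73740568 (CXCL8, plus strand), chr4:74099196-74099445 (CXCL2, minus strand) and chr6:137867009-137867258 (TNFAIP3, plus strand). The match begins 79 bases before the start in CCL20, 137 in CXCL8 and 67 and 55 in TNFAIP3. No exact match to the NF-kB consensus was found in this window of CXCL8. Its letters tggaatttcc depart from that consensus in the first letter only, which must be G. Near matches were not counted for any gene, so the lack of a match does not show that a site is absent.

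The NF-kB consensus was found in 5.21% of 35116 promoters and in 8.09% of the 9068 genes taken that had one. Here and for the other motifs, a gene counts when any of its start sites has a match. Shares of genes are therefore to be set beside those of the genes taken, and not beside those of single promoters. It was found in 5 of 19 genes (26.3%) of the highest 25, in 2 of 17 (11.8%) of the lowest 25, in 9 of 20 chemokines and cytokines (45.0%) and in 11 of 22 NF-kB genes. The genes of the highest 25 with a match were CCL20, MAFF, SESN2, TNFAIP3 and IL23A. A match did not go with one direction, since CXCL10, which was lower (-0.39), and NFKBIA, which hardly differed (0.05), have one too. The AP-1 motif was found in 6.57% of all promoters, 5.93% of the genes taken, 5 of 19 (26.3%) of the highest 25 and 6 of 20 chemokines and cytokines. The composite element of ATF4 and C/EBP, searched as TGATGNAA, was found in 3.14% of all promoters, 2.10% of the genes taken and 5 of 28 (17.9%) genes of the ATF4 list, namely ASNS, CHAC1, SLC1A5, CEBPG and JDP2. Both cytokine genes and NF-kB genes are known for such motifs, so the shares describe the lists and are read no further.

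ATF4 is the transcription factor of the amino acid response, which raises amino acid transporters, synthetic enzymes and tRNA synthetases. Of 38 listed genes, 35 were taken, 30 were higher and 5 lower, with a median of 0.23, and 4 were at least 1.5-fold higher beside 0.624% of all genes. SESN2, a leucine sensor that restrains mTORC1, was at 35.3 FPKM in the empty vector library, 21.8 with GFP siRNA and 36.3 with HDAC1 siRNA (0.71). SLC6A9, a glycine transporter, was at 33.1, 13.8 and 21.3 FPKM (0.60), and the secreted factor STC2 at 82.8, 33.1 and 50.3 (0.59). The GFP siRNA library was the low one for all 3, and with HDAC1 siRNA SESN2 alone was back at its level in the empty vector library. ASNS, asparagine synthetase, was at 104, 54.8 and 76.9 FPKM (0.48), and VLDLR, a lipoprotein receptor, at 33.9, 11.1 and 18.8 (0.71). ATF4 itself differed by 0.19 and DDIT3 (CHOP) by -0.21. Of 19 cytosolic tRNA synthetases, 16 were higher with a median of 0.15. None was past 1.5-fold, beside 0.624% of all genes higher and 1.46% lower. CARS was at 69.3, 44.8 and 58.0 FPKM (0.37) and GARS at 163, 111 and 139.8 (0.33), both between the other libraries with HDAC1 siRNA.

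Hypoxia-response genes, targets of the HIF factors, had 15 of 22 higher and a median of 0.18. None was past 1.5-fold, beside 0.624% of all genes higher and 1.46% lower. BNIP3, a mitophagy receptor, was at 480 FPKM in the empty vector library, 166 with GFP siRNA and 212 with HDAC1 siRNA (0.35). EGLN1, the oxygen-sensing prolyl hydroxylase, was at 27.7, 11.3 and 15.1 FPKM (0.38). In both, the HDAC1 siRNA level stayed far below the empty vector level. The core glycolytic enzymes, many of them HIF targets as well, had a median of 0.02, close to all genes. ERK feedback genes, which damp the MAP kinase pathway, had 15 of 22 higher and a median of 0.20. The phosphatase DUSP8 was at 3.53, 2.40 and 4.64 FPKM (0.73), whereas the phosphatase DUSP10 was at 20.4, 19.6 and 14.1 (-0.45).

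Components of TGF-beta, activin and BMP signalling had 20 of 25 higher with a median of 0.13. Past INHBA, the corepressor SKI was at 9.34 FPKM in the empty vector library, 6.18 with GFP siRNA and 9.55 with HDAC1 siRNA (0.55), and the ligand BMP4 was lower (-0.43). ID1, an inhibitor of differentiation that BMP signals induce, was at 16.3, 27.0 and 13.2 FPKM (-0.99). ID3 was at 16.5, 45.6 and 32.3 FPKM (-0.49), and HES1, a target of Notch, at 8.26, 23.9 and 16.1 (-0.54). All 3 had their high value in the NANOG GFP siRNA library, and ID1 alone ended below the empty vector library. They belong to a list of immediate early genes outside AP-1, of which 26 of 32 were taken, 18 higher and 8 lower, with a median of 0.17 and a mean of 0.02. The higher side of that list was led by ZFP36, an mRNA decay factor, at 34.1, 30.7 and 42.4 FPKM (0.45), with KLF6 at 30.5, 19.8 and 26.6 (0.41). Genes of the YAP and TAZ pathway had 20 of 27 higher with a median of 0.12. Beyond ANKRD1 their best-known targets differed little, CTGF by -0.27 and CYR61 by -0.06.

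Among G1 cyclins, kinases and their inhibitors, 16 of 25 were higher, with a median of 0.08. The lower CCND1 stood beside a higher CDK6, one of its partner kinases, at 19.2 FPKM in the empty vector library, 10.9 with GFP siRNA and 17.2 with HDAC1 siRNA (0.61). CDC25A, a phosphatase that activates CDK2, was at 10.02, 9.15 and 14.4 FPKM (0.60). CDKN1A, the inhibitor p21, which histone deacetylase inhibitors raise in many cells, was at 94.4, 91.7 and 109 FPKM (0.25). Mitosis genes (median 0.03) and DNA replication genes (median 0.02) lay close to the median of all genes. None of their 36 and 43 members passed 1.5-fold, beside 0.624% of all genes higher and 1.46% lower. Lists of this size without such a gene stand near those shares.

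In the list of class I HDACs and their corepressor subunits, the median was 0.03. HDAC1, the target of the siRNA, was the single member of 36 past 1.5-fold, beside 0.624% of all genes higher and 1.46% lower. HDAC2 was at 17.7 FPKM in the empty vector library, 17.0 with GFP siRNA and 17.8 with HDAC1 siRNA (0.07), and HDAC3 differed by -0.11 and HDAC8 by 0.02. The NuRD helicase CHD3 was at 29.8, 33.7 and 24.4 FPKM (-0.45), and MIER2, a scaffold for HDAC1 and HDAC2, at 7.81, 6.19 and 9.06 (0.49). HDAC9, a class IIa enzyme, was at 29.4, 20.4 and 30.4 FPKM (0.55), higher by a wider margin than the other class II members. In a list of genes known to respond to HDAC inhibitors with higher levels, 19 were taken, 9 were higher and 10 lower, with a median of -0.07 (0.09 on the TPM scale over all symbols). DHRS2 was at 4.04, 3.40 and 4.77 FPKM (0.39) and H1F0 at 88.5, 78.1 and 90.6 (0.21), while CRIP2 was at 6.76, 5.28 and 2.53 (-0.83).

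Protein production showed single large differences over lists whose medians lay near that of all genes, while most genes of lipid synthesis were lower. Of 74 ribosome biogenesis genes 35 were higher and 39 lower, with a median of -0.03 (0.15 on the TPM scale over all symbols), and 4 were at least 1.5-fold lower beside 1.46% of all genes, namely NCL, WDR18, UBTF and PELP1. UBTF, which loads RNA polymerase I on ribosomal DNA, was at 18.8 FPKM in the empty vector library, 25.6 with GFP siRNA and 13.8 with HDAC1 siRNA (-0.85). NCL, UBTF and PELP1 are among the genes with the densest windows, and WDR18 is not. The 77 cytoplasmic ribosomal protein genes had a median of 0.01. Chaperones of the endoplasmic reticulum had a median of -0.05 (0.13 on the TPM scale over all symbols), with CALR and PDIA4 of 30 at least 1.5-fold lower beside 1.46% of all genes, the latter at 193, 254 and 159 FPKM (-0.67). HSPA5, the chaperone BiP, differed by 0.03. Genes of cholesterol and fatty acid synthesis had 28 of 35 lower with a median of -0.07. On the TPM scale over all symbols that median was 0.11, above 0 but still below the 0.18 of all genes. SCD, the stearoyl-CoA desaturase, was at 318, 126 and 76.4 FPKM (-0.71), so both NANOG libraries were below the empty vector library and the HDAC1 siRNA library was the lowest.

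**Figure D5:**
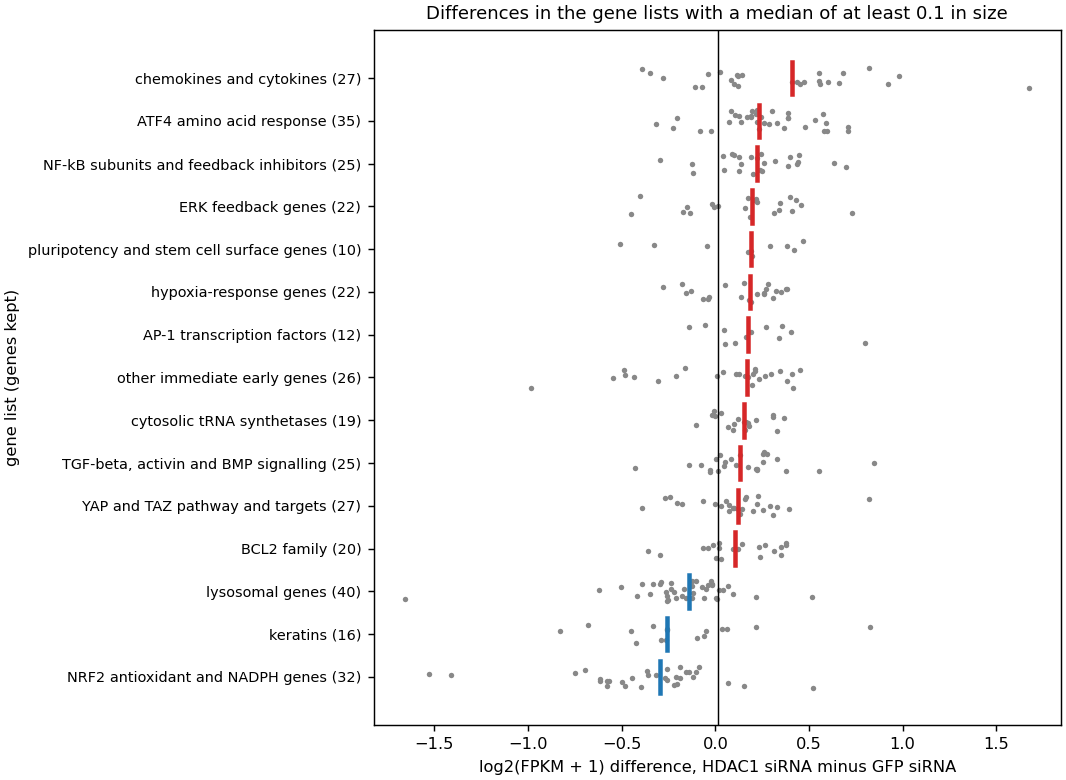
Differences in log2(FPKM + 1), HDAC1 siRNA minus GFP siRNA in NANOG cells, of the members (gray points) of each gene list whose median (colored bar) was at least 0.1 in size, with the number of genes taken in parentheses; the vertical line is the median of all genes, 0.01. Chemokines and cytokines have the highest median, 0.41, and the NRF2 genes the lowest, -0.29, and every list holds members on both sides of the line.

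Of the 40 lists, 15 had a median of at least 0.1 in size, 12 of them higher and 3 lower. These counts use the medians themselves, and read against the median of all genes that of the BCL2 family was 0.094. They also depend on the scale, since TPM over all symbols moved the median of all genes to 0.18. Lists that gave little beyond the median of all genes included interleukin-1 receptors and signal proteins (0.06), p53 targets (0.00), heat shock proteins (0.01), interferon-stimulated genes (-0.05, and 0.10 on the TPM scale over all symbols) and proteasome subunits (-0.06, and 0.13 on that scale). Pluripotency and stem cell surface genes had 10 of 31 members taken, 7 higher and 3 lower, with a median of 0.19 that was 0.00 over all 31 with no filter on low values. KLF4, a pluripotency factor that keratinocytes also use, was at 46.6 FPKM in the empty vector library, 40.9 with GFP siRNA and 53.6 with HDAC1 siRNA (0.38). SALL4 was at 8.66, 3.86 and 5.73 FPKM (0.47), and ALDH1A3, an aldehyde dehydrogenase of stem-like tumor cells, at 8.64, 19.5 and 13.4 (-0.51). The direction thus differed between members, and both SALL4 and ALDH1A3 were intermediate with HDAC1 siRNA.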

How the data were processed

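Total RNA of CaSki cells was sequenced as 1 library for each of 3 groups, assigned from the overexpression and siRNA labels. Per the labels' protocols, Trizol was used for extraction and a stranded TruSeq kit for libraries of total RNA. The submitters' processing notes name TopHat2 and Cufflinks with the hg19 build. Their versions, the annotation and strand handling were not given in the sources used here. As deposited, the values are FPKM by the authors, 1 per symbol and library, so an abundant RNA or a wrong fragment assignment in one library passes into its values. No per-sample column was unused (0). The members, lists and features described were chosen with earlier results of these data known.

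Small RNA symbols (1603), genes listed at 0 (6) and genes with a mean under 1 FPKM (10283) were left out. Differences used log2(FPKM + 1) with no test. Genes named were HDAC1, NANOG, the 25 highest and 25 lowest differences among genes at 5 FPKM or more in the higher library (symbols starting with LOC left out), genes past 2-fold, genes listed at 0 and members of 40 lists; ATAD2, SET and PLSCR3 were chosen after their values were seen. A few genes under this rule are not reported here. Depth was estimated from steps of FPKM times length in low genes with a single transcript: 73.6% to 76.1% lay within 0.2 of whole multiples, where even spread gives 40%. Fragment numbers are approximate and cover counting only. Coding windows came from GENCODE release 29 (GRCh38), promoters and starts from RefSeq (GRCh38.p14); older symbols were matched through synonyms. Alternatives were pseudocounts of 0.1 and 0.5, no filter, a filter at 5 FPKM, TPM with and without small RNAs, the same upper quartile, a median of 0, small RNAs or genes listed at 0 kept, a 3-fold threshold and list means. Leaving out genes with 18 or more GA codons, or any gene at 0, was chosen after seeing the data. Steps were tested on simulated data. Python 3.11.15, numpy 2.4.6, pandas 2.3.3 and matplotlib 3.10.9 were used.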

Additional observations from a re-analysis of the deposited data

How the results depend on the processing

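No paired analysis was possible because each group holds 1 library, and for the same reason no library could be left out. The directions of the 50 genes with the highest and lowest differences held under all alternatives that gave a value. This was fixed in advance, since these genes were picked for differences of at least 0.676 in size. The alternatives rescale the same values, and they moved the median of all genes to 0.18 at most. The held directions are therefore no check of these differences. The 4 genes at least 2-fold higher became 14 with a pseudocount of 0.1 FPKM, 7 with 0.5, 2 with a filter at 5 FPKM, 15 with TPM over all symbols, 8 with TPM without small RNAs, 10 with small RNAs kept, 10 with genes listed at 0 kept and 1 at 3-fold. The 25 at least 2-fold lower became 47 with a pseudocount of 0.1, 46 with small RNAs kept and 5 at 3-fold. The 71 at least 1.5-fold higher became 132 with a pseudocount of 0.1, 291 with TPM over all symbols and 128 with TPM without small RNAs. The 166 at least 1.5-fold lower became 267 with a pseudocount of 0.1 and 86 with TPM over all symbols. The median of the lysosomal genes turned from -0.14 to 0.037 with TPM over all symbols, a rescaling that adds the same shift to every abundant gene. It stayed below the median of all genes, which was 0.18 on that scale. Across the alternatives, a further 48 list values moved by at least 0.1 and 351 by less. Most of the 48 came from TPM over all symbols, the same rescaling that moved the median of all genes to 0.18. Others came with a change of the filter on low values, among them chemokines and cytokines, keratins and pluripotency genes. Without genes with 18 or more GA codons, the 2-fold counts were 4 higher and 20 lower. Spread between cultures of one group is unknown, and low genes such as CCL20 rest on few fragments.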
